A study of Mus musculus with 16 samples.

Results

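The genes of the potassium channels were examined in the brain cortex of P7 mouse pups, as all rows of the expression table whose symbol begins with Kcn, apart from the imprinted antisense transcript Kcnq1ot1. Of 97 such rows, 82 had a log2 CPM (reads of a gene scaled to a common library size) above -5 in at least 12 of 16 pups and form the members described here, out of 21183 genes analysed. All pups were C57BL6 mice killed at P7, and all had spent 1 h a day under blue light on P1 to P5. The 8 Avil-ChR2 pups carried channelrhodopsin-2 behind a floxed stop together with Cre recombinase under the Advillin promoter. This promoter is active mainly in primary sensory neurons, on which the light was meant to act. The 8 ChR2-flfl control pups carried the floxed channel without Cre and received the same light. Pups without light were not analysed here, so the light itself cannot be told apart from what both genotypes share. Nor can the excitation of sensory neurons be told apart from carrying Cre and the expressed channel. Although the controls were Cre-negative littermates, which pups shared a litter is not given.

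Potassium channels set the resting potential of neurons and glia, repolarise the membrane after an action potential and thereby limit firing. Voltage-gated channels are tetramers of pore-forming subunits that open upon depolarisation. Further subunits of the same fold are silent alone and modify a partner, and cytosolic or small membrane proteins adjust gating and surface expression. Inward rectifiers and 2-pore-domain channels conduct near the resting potential, inward rectifiers also in astrocytes, where they take part in potassium clearance, and calcium- or sodium-activated channels couple the potassium conductance to ion entry. In the postnatal cortex many of these genes are known to increase as neurons mature.

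The libraries held 30549126 to 48711134 reads per pup, the lowest in ChR2-flfl replicate 3. The Avil gene, whose promoter drives Cre, was 0.825 to 1.46 CPM in ChR2-flfl pups and 37.3 to 46.4 CPM in Avil-ChR2 pups. Each pup thus matched its genotype label. Avil RNA was present in the cortex of Avil-ChR2 pups, and whether Cre acted there was not tested. The Y-linked gene Ddx3y was 1.71 to 2.57 CPM in 8 pups labelled female and 50.7 to 73.4 CPM in 7 pups labelled male, but 54.7 CPM in Avil-ChR2 replicate 4, a library labelled female that the study's own gene table lists as male, and results by sex, in which it is kept among the females as labelled, are therefore given with and without it. All 6 markers of cortical excitatory neurons were detected, with a summed level of 1140 to 1252 CPM in ChR2-flfl and 1192 to 1285 CPM in Avil-ChR2 pups, whereas 5 markers of choroid plexus summed to 2.89 to 7.23 CPM over all pups. Over all pups, 4 markers of striatum summed to 67.1 to 102 CPM and 3 of thalamus to 58.3 to 74.3 CPM. The 3 markers of cerebellum summed to 29.3 to 38.7 CPM. No marker of the 13 cell and tissue lists differed between genotypes at an adjusted p under 0.05 (limma). In whole cortex, fewer cells of a type and less RNA per cell cannot be told apart.

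The 82 members fell into 20 symbol stems. A total of 15 rows did not reach the threshold, and among them Kcne4, Kcnj13, Kcnmb1, Kcnmb4os1 and Kcnrg were listed at 0 in all 16 pups. Each of these 5 rows lies inside the interval of another row, for example Kcnj13, an inward rectifier known from choroid plexus, inside Gigyf2. The microglial gene P2ry12, which lies inside Med12l, was likewise listed at 0 in all pups, so that a listing at 0 cannot be read as absence. The same holds for Kcnq1ot1, which lies inside Kcnq1 and was listed at 0. In total 33 members overlap another row, including Kcnq1 with Kcnq1ot1, Kcnd3 with Kcnd3os and Kcnmb4 with Kcnmb4os2. As the use of strand in counting is not stated in the sources used here, reads of such partners cannot be assigned with certainty. Just inside the threshold was Kcnn4, the intermediate-conductance calcium-activated channel, with 0 to 0.145 CPM in ChR2-flfl and 0.041 to 0.145 CPM in Avil-ChR2 pups. Just outside were the accessory subunit gene Kcne3 and the 2-pore-domain gene Kcnk7, each above a log2 CPM of -5 in 11 pups.

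Levels between genes were compared as CPM per kb of the longest annotated transcript, and are given as mean ± SD of the 8 ChR2-flfl pups. Among the highest levels was that of the gene of the channel-interacting protein Kcnip2, with 30.1 ± 1.67 CPM per kb. After it in order came Kcnh3 (27.6 ± 3.43), Kcnmb4 (25.7 ± 1.64), Kcna6 (24.1 ± 0.802), Kcnq5 (24.0 ± 1.92), Kcnma1 (23.6 ± 1.42) and Kcnip4 (23.3 ± 2.55 CPM per kb), and the ranges of neighbours in this part of the order overlapped. Of the 81 pairs of neighbours in the whole order, only 3 had separate ranges. When the median instead of the longest transcript length was used, 14 of the 20 highest members were shared. The 28 pore-forming voltage-gated members accounted for 36.5% of the summed level of all members, the 11 auxiliary members for 19.9%, the 13 inward rectifiers for 12.8%, the 10 modulatory members for 10.7%, the 8 calcium- or sodium-activated members for 10.2%, the 10 members with 2 pore domains for 9.15% and 2 antisense transcripts for 0.752%.

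**Figure D1:**
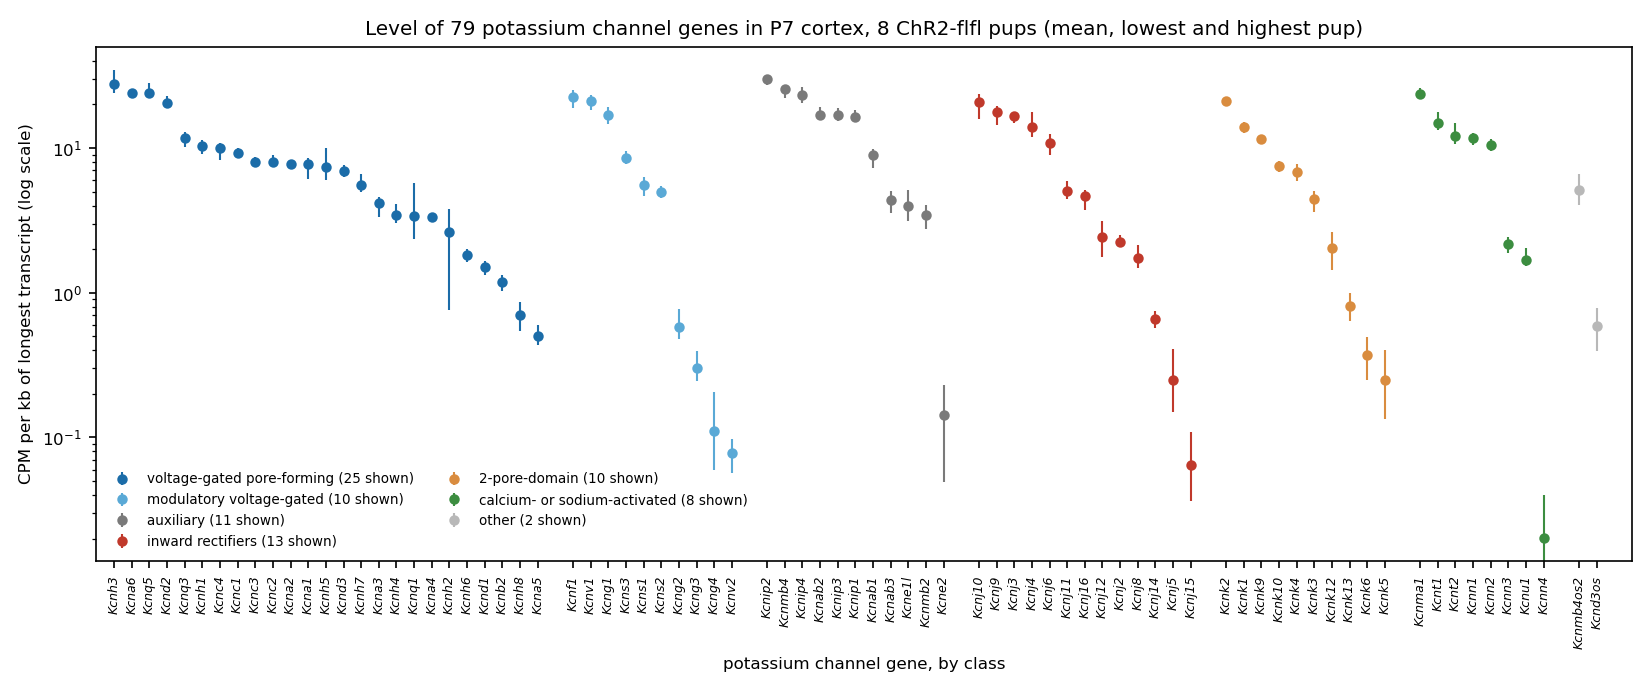
Level of 79 members in ChR2-flfl pups, as CPM per kb of the longest transcript on a log axis, grouped by class. Points show the mean of 8 pups and bars run from the lowest to the highest pup. Kcnip2 stands at 30.1 and Kcnn4 at 0.0203 CPM per kb, with the lowest pup of Kcnn4 at 0 and off the axis.

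The spread between control pups was small for most members. The coefficient of variation had a median of 9.52% and was under 10% for 46 members. It was 69.8% for Kcnn4, the member with the lowest level. Among members with higher counts, Kcnh2, the gene of the hERG channel, varied by 41.6% (3.22 to 15.9 CPM in ChR2-flfl pups, 3.64 to 17.7 CPM in Avil-ChR2 pups) and Kcnq1 by 31.5%. Kcnh2 was picked for its spread after the values were seen. In both genotypes the pups spread over a similar range for Kcnh2, and the lowest values were in replicate 6 of each group.

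Among the pore-forming voltage-gated members were genes of the M-current, which restrains repetitive firing. Per kb, Kcnq3 reached 11.7 ± 0.882 CPM and Kcnq1, a cardiac and epithelial channel, 3.40 ± 1.07 CPM, the lowest of its stem. The Kcnq1 row overlaps Kcnq1ot1, so its reads cannot be assigned to the channel with certainty. In the Shaker-type group, which shapes the axonal action potential, Kcna6 had the highest level and Kcna5 the lowest, 0.506 ± 0.0757 CPM per kb. Kcna1 and Kcna2, the main axonal subunits of the adult brain, stood at 7.71 ± 0.877 and 7.75 ± 0.363 CPM per kb, and their ranges overlapped. The 4 Kcnc members, whose channels permit fast spiking of interneurons, lay close together, from Kcnc2 with 7.96 ± 0.509 to Kcnc4 with 9.96 ± 0.802 CPM per kb, while Kcnc1 had 9.28 ± 0.496 CPM per kb. Kcnd2 and Kcnd3, which carry the dendritic A-type current, reached 20.4 ± 1.25 and 6.96 ± 0.448 CPM per kb. In the ether-a-go-go group, Kcnh3 had 27.6 ± 3.43, Kcnh7 5.57 ± 0.543 and Kcnh8 0.699 ± 0.103 CPM per kb.

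Of the modulatory subunits, which form no channel alone, Kcnf1 (22.4 ± 1.77), Kcnv1 (21.1 ± 1.41) and Kcng1 (16.92 ± 1.499 CPM per kb) were among the 20 highest members. Kcns3 had 8.52 ± 0.606 and Kcns2 4.96 ± 0.299 CPM per kb. Kcng4 stood at 0.111 ± 0.0457 CPM per kb, far below Kcng1 of the same stem. Among auxiliary subunits, the 4 Kcnip genes, whose calcium-binding proteins attach to Kcnd channels, ranged from Kcnip1 with 16.4 ± 1.19 to Kcnip2 with 30.1 ± 1.67 CPM per kb, with Kcnip3 at 16.8 ± 1.06 CPM per kb. The genes of the cytosolic beta subunits of Kcna channels followed the order Kcnab2 (16.97 ± 1.37), Kcnab1 (8.96 ± 0.991) and Kcnab3 (4.36 ± 0.531 CPM per kb). Kcnmb4, the neuronal beta subunit of the large-conductance channel Kcnma1, stood at 25.7 ± 1.64 CPM per kb, close to Kcnma1 itself, whereas Kcnmb2, which confers inactivation, stood at 3.44 ± 0.374 CPM per kb. Kcne2, a small subunit known from choroid plexus, was 0.083 to 0.392 CPM in ChR2-flfl and 0.102 to 0.288 CPM in Avil-ChR2 pups.

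Among inward rectifiers, Kcnj10, the principal channel of astrocytes, had the highest level, 20.8 ± 2.42 CPM per kb, and Kcnj15 the lowest, 0.0647 ± 0.0250 CPM per kb. Kcnj16, which pairs with Kcnj10, stood at 4.66 ± 0.483 CPM per kb. The genes of the G-protein-gated channels, which mediate slow inhibition, were Kcnj9 with 17.7 ± 1.84, Kcnj3 with 16.5 ± 0.815 and Kcnj6 with 10.8 ± 1.21 CPM per kb. Kcnj8, the ATP-sensitive channel of pericytes and vascular muscle, stood at 1.75 ± 0.219 CPM per kb. Of the 2-pore-domain genes, which provide leak currents, Kcnk2 had 21.1 ± 1.14, Kcnk1 14.0 ± 0.929 and Kcnk9 11.6 ± 0.395 CPM per kb, and Kcnk5 had the lowest level, 0.248 ± 0.0927 CPM per kb. Of the calcium- or sodium-activated genes, Kcnma1 was followed by the sodium-activated pair Kcnt1 (13.4 to 17.8) and Kcnt2 (12.1 ± 1.44) and by the small-conductance genes Kcnn1 (11.8 ± 0.898) and Kcnn2 (10.5 ± 0.619 CPM per kb), both of which contribute to afterhyperpolarisation.

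The question of the comparison between genotypes was whether repeated excitation of sensory neurons in the first days of life altered the cortical transcriptome. Cre and the expressed channel differed between the genotypes as well, so a difference could not be assigned to the excitation alone. No potassium channel gene differed at an adjusted p under 0.05 over all 21183 genes (limma, range of adjusted p 0.825 to 1.00), against 2 genes or 0.00944% of all genes. Before adjustment, 8 of 82 members had p under 0.05, or 9.76% against 5.41% of all genes. Of these, 7 were lower in Avil-ChR2 pups (8.54% against 3.46% of all genes) and 1 was higher (1.22% against 1.95%). The median log2 difference was -0.0047 over the members and 0.0020 over all genes, with 43 members below 0 and 39 above, and the median of the absolute differences was 0.047 over the members and 0.051 over all genes. Differences ranged from -0.28 for Kcnj14 to 0.37 for Kcnn4, and 63 members lay within 0.1 of 0. The value of Kcnn4 depends on the log2 floor of -5. Its 0 CPM in ChR2-flfl replicate 7 was the 1 member value set to that floor. For no member did the pups of the genotypes fail to overlap, which was the case for 6 or 0.0283% of all genes.

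The precision bounded large differences for most members, while the median absolute difference of 0.047 was smaller than the typical interval to either side. At most the 95% interval extended 0.782 to either side, and 0.705 among members with at least 10 CPM. The 95% interval of the log2 difference extended a median of 0.122 to either side, and 0.1002 for the 58 members with at least 10 CPM, and for 70 members the whole interval lay within 0.5 of 0. By class, the summed level of the pore-forming voltage-gated members was 276 ± 9.35 CPM per kb in ChR2-flfl and 274 ± 4.94 CPM per kb in Avil-ChR2 pups, and that of inward rectifiers 96.9 ± 6.32 and 98.2 ± 3.57 CPM per kb. Sums of auxiliary members were 150 ± 5.46 and 151 ± 5.89 CPM per kb. In each of these 3 classes the difference between genotypes was smaller than the SD between pups. The calcium- or sodium-activated members summed to 76.8 ± 3.84 and 74.4 ± 2.32 CPM per kb, a difference smaller than the SD of ChR2-flfl but larger than that of Avil-ChR2 pups.

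The member with the smallest p was Kcnn3, a small-conductance calcium-activated channel at chr3:89520164-89672494 (GRCm38). It was 15.7 to 20.2 CPM with a median of 18.0 CPM in ChR2-flfl and 15.2 to 17.3 CPM with a median of 16.4 CPM in Avil-ChR2 pups. Each of 8 Avil-ChR2 pups lay under the control mean but only 2 under the lowest control pup, and the log2 difference was -0.13 ± 0.046 (SE; limma p = 0.00997, adjusted p = 0.825; exact permutation p = 0.012). The labels number the pups in 2 consecutive runs, and the difference was -0.19 in the earlier run (26 to 33) and -0.07 in the later run (35 to 42). Kcnma1, the large-conductance calcium-activated channel at chr14:23292291-24004951, was 264 to 315 CPM with a median of 281 CPM in ChR2-flfl and 258 to 276 CPM with a median of 269 CPM in Avil-ChR2 pups. Again 8 of 8 Avil-ChR2 pups fell under the control mean and 2 under the lowest control pup, with a log2 difference of -0.09 ± 0.032 (SE; limma adjusted p = 0.825). The beta subunit gene Kcnmb2 at chr3:31902132-32200180 was 8.11 to 11.8 CPM (median 9.94 CPM) in ChR2-flfl and 6.84 to 10.1 CPM (median 8.58 CPM) in Avil-ChR2 pups. Its log2 difference was -0.21 ± 0.079 (SE; limma adjusted p = 0.831), whereas the other beta subunit gene, Kcnmb4, was 0.07 ± 0.052 in the opposite direction.

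The remaining members with unadjusted p under 0.05 came from other classes. Kcnh7, an ether-a-go-go related channel at chr2:62699587-63184287, was 65.9 to 88.1 CPM (median 73.0 CPM) in ChR2-flfl and 59.2 to 72.7 CPM (median 68.0 CPM) in Avil-ChR2 pups, with 3 Avil-ChR2 pups below all controls and a log2 difference of -0.14 ± 0.054 (SE). Kcnj6, a G-protein-gated inward rectifier at chr16:94748683-94997696, was 32.4 to 45.0 CPM (median 38.1 CPM) and 30.8 to 38.2 CPM (median 35.2 CPM), with a log2 difference of -0.15 ± 0.059 (SE). Its usual partner Kcnj3 differed by -0.02 ± 0.040. The low-abundance rectifier Kcnj14 at chr7:45816467-45824747 was 1.53 to 2.01 CPM in ChR2-flfl and 1.05 to 1.88 CPM in Avil-ChR2 pups (log2 difference -0.28 ± 0.12), with 4 Avil-ChR2 pups below all controls. Kcnq3, an M-current subunit at chr15:65992662-66286813, was 120 to 154 CPM in ChR2-flfl and 119 to 140 CPM in Avil-ChR2 pups (log2 difference -0.09 ± 0.043), and its exact permutation p of 0.0732 was above 0.05. Kcng2, a silent modulatory subunit at chr18:80294544-80365105, was the member that was higher, 1.35 to 2.16 CPM in ChR2-flfl and 1.60 to 2.18 CPM in Avil-ChR2 pups (log2 difference 0.23 ± 0.10). The limma adjusted p of these 5 members was 0.833 to 0.911.

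**Figure D2:**
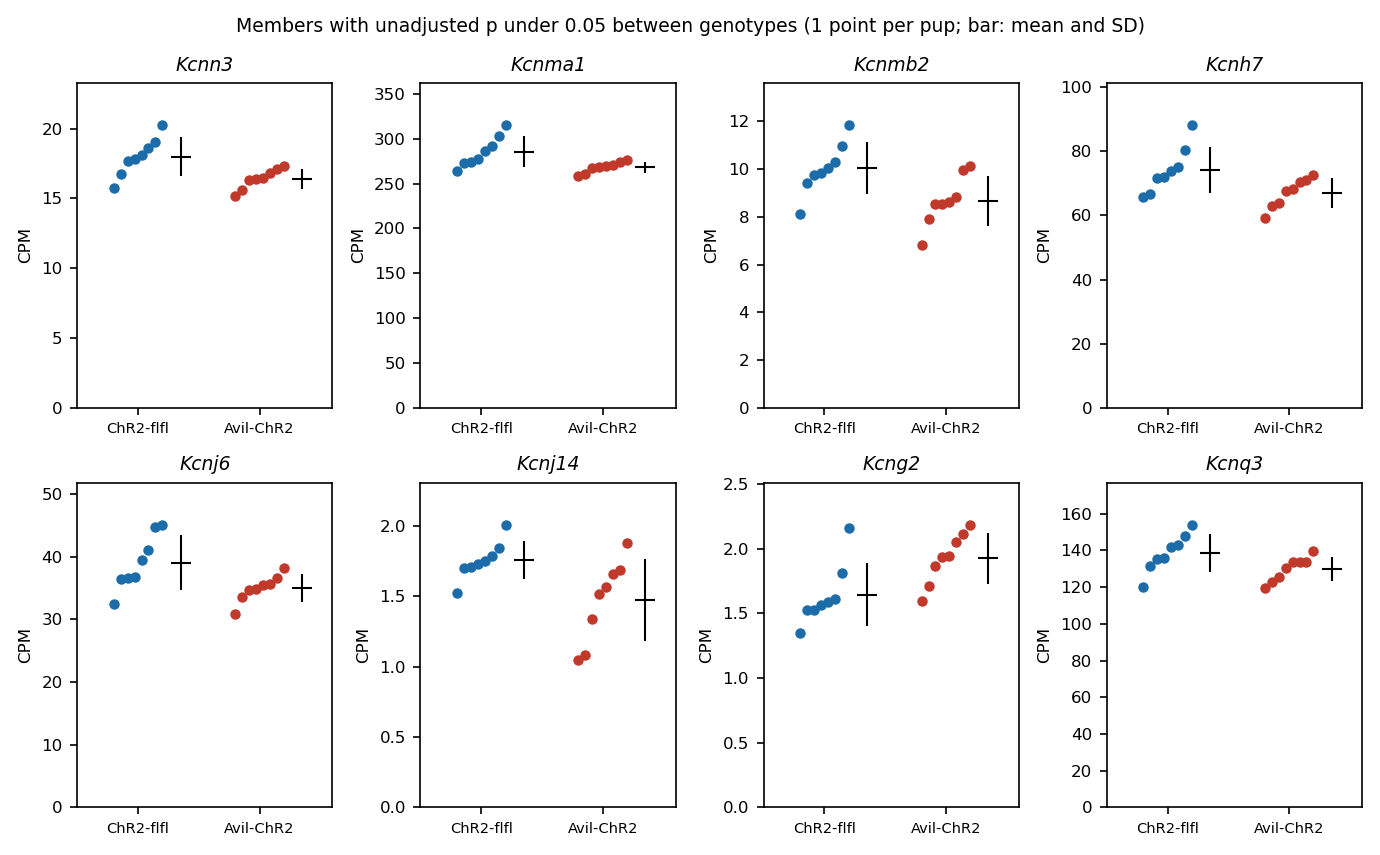
CPM of the 8 members with an unadjusted p under 0.05 between genotypes, with 1 point per pup sorted by value and the mean and SD of 8 pups beside each group, on axes that start at 0. The groups overlap for every member, and 3 of 8 Avil-ChR2 pups for Kcnh7 and 4 of 8 for Kcnj14 lie below all ChR2-flfl pups.

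The span from start to end of these 7 lower members had a median of 294152 bp, where all members had a median of 41988 bp and all genes 21366 bp, although Kcnj14 among them spans only 8281 bp. The log2 difference was therefore described by span, with a limit of 200 kb that was set after the values were seen. All 18 members of 200 kb or more were below 0, with a median of -0.08 and a range of -0.24 to -0.02, and 5 of them had an unadjusted p under 0.05. Of all 1041 genes of that span, 70.9% were below 0, 12.9% were lower with an unadjusted p under 0.05 and the median was -0.03. Of the 64 shorter members, 25 were below and 39 above 0, with a median of 0.01. At a limit of 100 kb 21 of 24 members were below 0, at 150 kb 20 of 22 and at 300 kb 13 of 13, where 65.0%, 68.4% and 74.0% of all genes of these spans were. The 18 members belong to all classes but the modulatory, 2-pore-domain and antisense groups, and besides those described above they include Kcnq1 (-0.24 ± 0.13), Kcnd2 (-0.04 ± 0.033), Kcnip4 (-0.07 ± 0.058), Kcnt2 (-0.08 ± 0.065), Kcnb2 (-0.11 ± 0.059) and Kcnh8 (-0.04 ± 0.095). Kcnq1, at the lower end of the range, overlaps Kcnq1ot1, and its reads cannot be assigned with certainty.

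A slope of the log2 level on log10 span, over all genes of a pup, was 1.83 to 1.92 with a median of 1.88 in ChR2-flfl and 1.83 to 1.90 with a median of 1.84 in Avil-ChR2 pups. With this slope as a covariate, 16 of the 18 long members were below 0 with a median of -0.05. None of them kept an unadjusted p under 0.05. Of all genes of that span, 61.9% were below 0 and 6.63% were lower with such a p. The slope came from the same values, members included, and its median differed between genotypes. Part of a span-related genotype difference can thus be removed by construction. Over all 82 members 3 had an unadjusted p under 0.05 with the covariate, against 5.09% of all genes, of which Kcnn3 (-0.12) and Kcnj14 (-0.30) were shared with the fit without it. In either run alone, 16 of the 18 long members were below 0. The nuclear RNA Malat1 was 202 to 452 CPM in ChR2-flfl and 179 to 265 CPM in Avil-ChR2 pups. The part of Malat1 in the values of the long members was not tested.

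**Figure D3:**
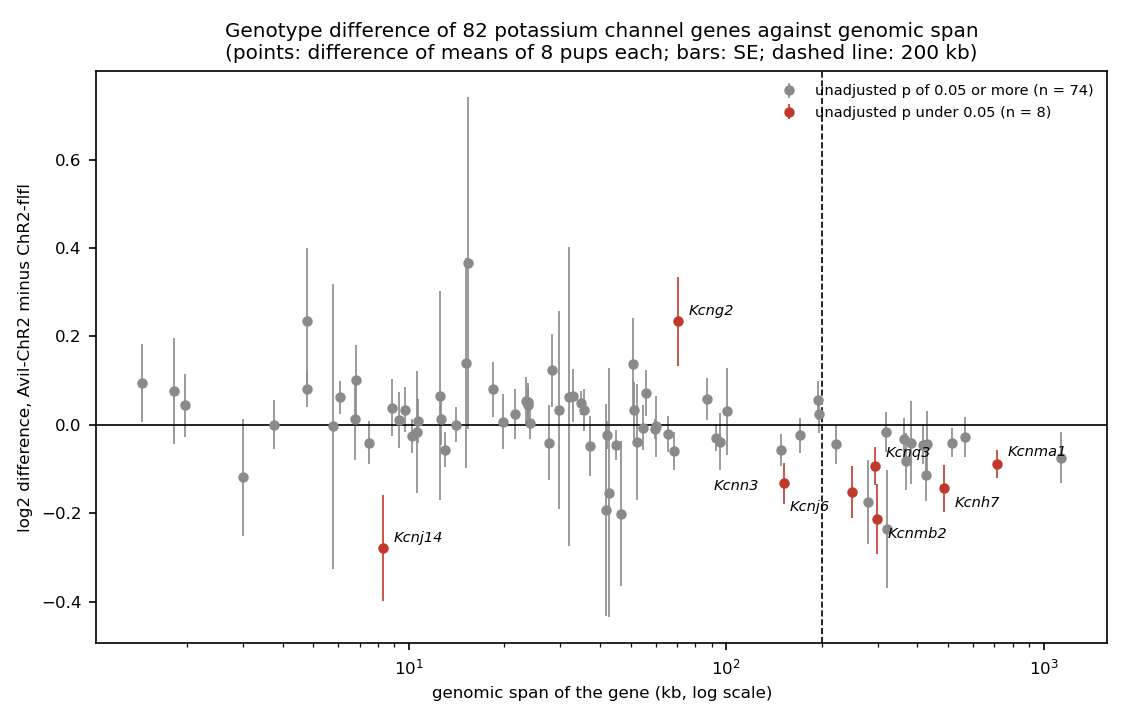
Log2 difference between genotypes (Avil-ChR2 minus ChR2-flfl, 8 pups each) of the 82 members against genomic span in kb on a log axis, with bars of 1 SE. The 18 members to the right of the dashed line at 200 kb lie below 0, and the 64 to its left lie on both sides.

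Genes of channel complexes without the Kcn stem were read from a list of 8. None passed an adjusted p of 0.05 (limma), and 1 of the 8 had an unadjusted p under 0.05, against 5.41% of all genes. This was Ank3 at chr10:69533580-70027436, the scaffold that anchors Kcnq3 at the axon initial segment. It was 488 to 686 CPM in ChR2-flfl and 491 to 556 CPM in Avil-ChR2 pups (log2 difference -0.15 ± 0.056, limma adjusted p = 0.831, -0.11 with the slope covariate). Ank3 is longer than 200 kb, and 12.9% of all genes of 200 kb or more were lower with an unadjusted p under 0.05. The auxiliary subunits of Kcnd channels, Dpp6 and Dpp10, differed by 0.04 ± 0.031 and -0.04 ± 0.039. Cntnap2 and Lgi1, which act on axonal Kcna channels, differed by -0.04 ± 0.028 and 0.01 ± 0.041, Amigo1 by 0.02 ± 0.030, and the sulfonylurea receptor genes Abcc8 and Abcc9 by -0.08 ± 0.062 and 0.03 ± 0.051.

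The 2 runs of pup numbers each held 4 pups per genotype. With genotype in the limma model, no member differed between runs at an adjusted p under 0.05, against 0.123% of all genes, and 15 members had an unadjusted p under 0.05, or 18.3% against 12.5% of all genes. The later pups were lower for 9 and higher for 6 members, and for 6.74% and 5.76% of all genes. Kcnk3, an acid-sensitive leak channel, had the smallest p. It was 16.3 to 19.4 CPM with a median of 18.4 CPM in earlier and 13.9 to 17.1 CPM with a median of 15.4 CPM in later pups. The log2 difference, later minus earlier, was -0.22 ± 0.048 (SE; limma adjusted p = 0.0679), whereas the genotype difference of this gene was -0.05 ± 0.068. Both sodium-activated genes were higher in the later run. Kcnt2 was 55.1 to 67.9 CPM in earlier and 65.1 to 86.5 CPM in later pups (log2 difference 0.19 ± 0.049) and Kcnt1 88.8 to 101 and 94.2 to 118 CPM (0.14 ± 0.041). Kcnq5 was 146 to 165 and 163 to 195 CPM (0.13 ± 0.037), and the small subunit Kcne1l 5.72 to 7.92 and 4.82 to 6.45 CPM (-0.25 ± 0.071). The runs overlapped for each of these 5 genes. With ChR2-flfl replicate 4 left out, the limma adjusted p of Kcnk3 was 0.0284, and with ChR2-flfl replicate 6 left out that of the rectifier Kcnj5 was 0.0349, so that the count of 0 rests on these pups. What the runs stand for, such as litters, cannot be told apart from the labels.

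**Figure D4:**
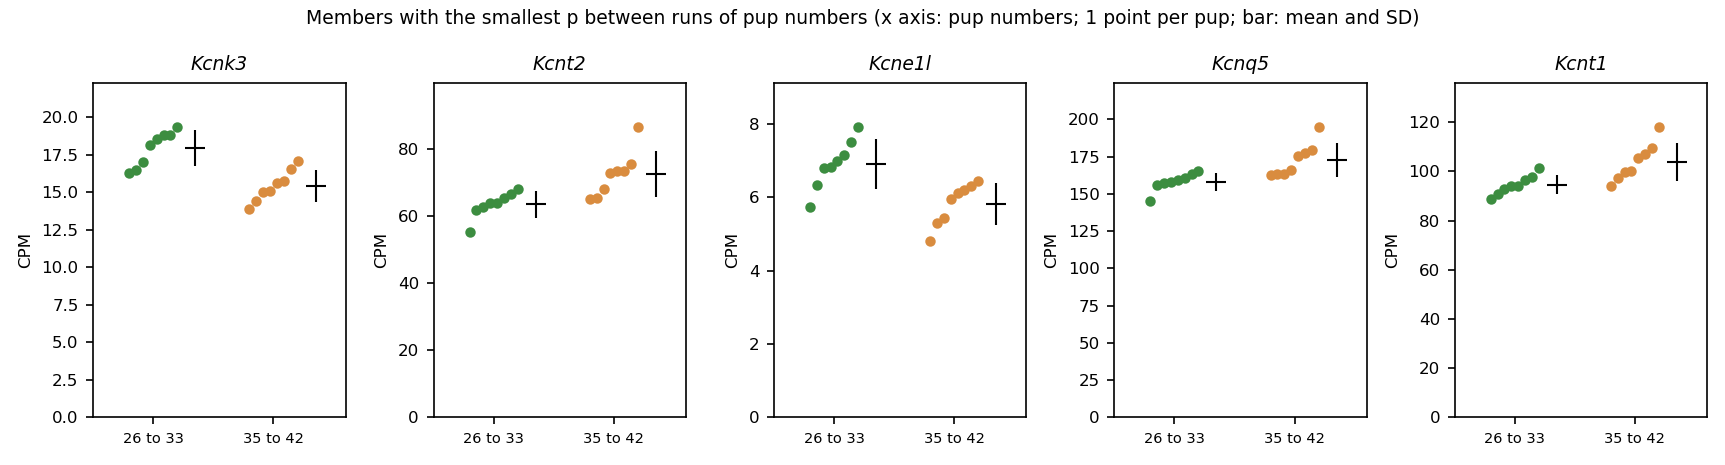
CPM of the 5 members with the smallest p between runs of pup numbers, with 1 point per pup sorted by value and the mean and SD of 8 pups beside each run, on axes that start at 0. Kcnk3 and Kcne1l are lower and Kcnt2, Kcnq5 and Kcnt1 higher in pups 35 to 42, with overlap of the runs.

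By the labelled sex, 9 females and 7 males, no member passed an adjusted p of 0.05, against 0.0425% of all genes. An unadjusted limma p under 0.05 was found for 4 members, or 4.88% against 4.46%. Without Avil-ChR2 replicate 4 it was found for 3 members, of which 2 were among these 4, and none passed the adjusted threshold. The share of all genes without that replicate is not given here. Kcnt1 was 88.8 to 105 CPM in pups labelled female and 93.9 to 118 CPM in males, with overlap of the groups, a log2 difference of -0.11 ± 0.046, and the same difference of -0.11 without Avil-ChR2 replicate 4. Kcnd2 differed by -0.07 ± 0.031, whereas Kcnd3 was 0.10 ± 0.041 higher in females. Without that replicate the differences of Kcnd2 and Kcnd3 were -0.06 and 0.09, with unadjusted limma p of 0.0608 and 0.0551.

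Whether the genotype difference itself depended on run or on sex was tested by interaction terms. No member passed an adjusted p of 0.05 (limma), nor did any gene. For the run, 3 members had an unadjusted p under 0.05, or 3.66% against 3.04% of all genes. The clearest was Kcnip4, the gene with the longest span of the members, which was -0.24 in the earlier and 0.09 in the later run (difference 0.34 ± 0.089, limma adjusted p = 1.00). For sex, 5 members had an unadjusted p under 0.05, or 6.10% against 4.31% of all genes. Without Avil-ChR2 replicate 4 there were 9 such members, against 4.72% of all genes, and again none passed the adjusted threshold. Kcnj6 had the smallest p among them, with a difference of 0.34 ± 0.097 between the genotype differences of females and males (limma adjusted p = 0.993), and 0.35 ± 0.10 without Avil-ChR2 replicate 4.

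Relations between a member and a partner of the same channel or cell type were computed over the 16 pups for 7 gene pairs, and none passed adjustment for these 7. Kcnj10 and Kcnj16, which form the astrocytic channel together, gave Pearson's r = 0.536 (permutation p = 0.0346, adjusted 0.121) and Spearman's rho = 0.359 (permutation p = 0.174, adjusted 0.609). Pearson's r was 0.821 in the earlier and -0.159 in the later run, and 0.326 without the 2 pups farthest from the median, so the relation rests on those pups and did not hold within both runs. Kcnd2 and Dpp10 gave r = 0.534 (permutation p = 0.0301, adjusted 0.121) and rho = 0.462 (permutation p = 0.0738, adjusted 0.517), with 0.211 and 0.420 within the runs and 0.308 without the 2 farthest pups. For the other 5 pairs, Kcnj10 with Aqp4, Kcnj8 with Abcc9, Kcnc1 and Kcnc2 with Gad1 and Kcne2 with Ttr, r was -0.196 to 0.340.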

How the data were processed

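Cortex RNA of 16 pups was sequenced. The authors aligned the reads to the mouse genome (mm10, GRCm38 per the labels) with SeqMan NGen, normalised the counts per gene to CPM by the TMM method with edgeR, and read the values in ArrayStar. The deposited values are these CPM, written with a decimal comma, and not raw counts. Divided by what 1 read is worth in its pup, every value of up to 20000 reads came within 0.05 of a whole number. Values were taken as log2 CPM with a floor of -5, and genes above that floor in at least 12 of 16 pups were fitted with limma 3.58.1 (R 4.3.3, trended variance, Benjamini-Hochberg adjustment over 21183 genes), the genotype without covariates, sex and run with genotype in the model. The planned count tests were not run, and limma voom on the recovered reads was added in their place. Exact permutation used all splits of the 16 pups for single genes and 100000 resamples for correlations; tests were two-sided. Transcript lengths came from GENCODE M21, and all 82 members had a length. Gene intervals and spans were those given with the deposited values.

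The members, the gene lists and the classes were chosen with earlier results of these data known. Named genes were the 20 highest levels, the highest and lowest of each stem with 3 or more members, members with an unadjusted p under 0.05 between genotypes, up to 5 per run and sex comparison, a list of well-known channels and 8 partner genes. In simulated data with the spread of these pups, 200 of 21183 genes were changed at once, drawn from genes averaging at least 1 CPM. Of these, 60.0% passed the adjusted threshold in the genotype comparison when changed by 0.25 (log2). The share was 93.5% at 0.5, and none passed at 0.1. Recovery with fewer changed genes, or for genes under 1 CPM such as 7 of the members, was not simulated. The replicate numbers do not pair the pups. The controls were Cre-negative littermates, but which pups shared a litter is not given, so litter could not be modelled and p-values measure the spread between these samples. Alternatives are given in the closing section. Some members are counted among the 82 but not reported individually here.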

Additional observations from a re-analysis of the deposited data

Results flagged for a closer look

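A test for single pups far from the rest of their group was run on 57 named members in both genotypes, 114 groups of 8 pups, of which chance alone flags about 1 in 20. It picked out 1 value. Kcna2, an axonal Shaker-type channel gene, was 80.1 CPM in Avil-ChR2 replicate 1, whereas the other 7 Avil-ChR2 pups lay between 89.1 and 95.9 CPM and the ChR2-flfl pups between 84.7 and 95.9 CPM. No member passed the adjusted threshold for a difference of the genotype effect between runs or sexes.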

How the results depend on the processing

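No member passed the adjusted threshold between genotypes under any of the alternatives run, among them other filters and floors, quantile and median centring, sex, run or span slope as a covariate, voom on recovered reads, each run alone and each pup left out. The number of members with an unadjusted p under 0.05 was 8, against 5.41% of all genes. With the span slope as a covariate it was 3, against 5.09% of all genes. It was 5 in pups 35 to 42 only, a fit on fewer samples that shared 4 of the 8 members, and 6 to 12 with 1 pup left out. In pups 26 to 33 only it was 7, of which Kcnn3 alone was among the 8, although all 8 kept their sign in either run. Kcnq3 lost its unadjusted p in 17 alternatives, Kcng2 in 9 and Kcnj14 in 6, whereas Kcnn3 lost it in 1, pups 35 to 42 only. Most alternatives leave out 1 of the 16 pups and share the others, so these counts are not independent of each other. With the replicate number as a block the counts were 0 adjusted and 8 unadjusted. Of the latter, 7 were among the 8 without the block, with Kcnq1 in place of Kcnq3. Same-numbered pups did not deviate together (correlations -0.070 to 0.125, over 0.1 in 1 of 8, and 3 of 16 pups correlated best with their own number). Between runs, 15 members had an unadjusted p under 0.05, against 12.5% of all genes, and 13 to 18 members did with 1 pup left out. Adjusted counts were 0 to 1, namely Kcnk3 (adjusted p 0.0284) without ChR2-flfl replicate 4 and Kcnj5 (0.0349) without ChR2-flfl replicate 6 (limma). The unadjusted count by sex was 1 to 9 with 1 pup left out and 0 adjusted, at 1 without ChR2-flfl replicate 4, 2 without ChR2-flfl replicate 5 or 7, 9 without Avil-ChR2 replicate 5 and 8 without Avil-ChR2 replicate 8. For the interaction with run it was 1 to 6 (0 adjusted; 1 without Avil-ChR2 replicate 1 or 8, 5 without Avil-ChR2 replicate 6, and 6 without ChR2-flfl replicate 8 or Avil-ChR2 replicate 5), and for that with sex 3 to 9 (0 adjusted; 3 without ChR2-flfl replicate 3 or Avil-ChR2 replicate 8, 8 without ChR2-flfl replicate 4, 6 or 8, and 9 without Avil-ChR2 replicate 4). These leave-one-out fits of the interactions, voom and the span limits were added after the data were seen. Of the 18 members of 200 kb or more, 15 to 18 were below 0 with 1 pup left out. The correlation of Kcnc2 and Gad1 turned from 0.028 to -0.018 with deviations from genotype means. The cause of these shifts was not tested. For most alternatives the share of all genes is not given here, so a shift in the count of members cannot be set against it. The planned edgeR and DESeq2 fits were not run. The 95% interval of the genotype difference reached 0.782 to either side over all members and 0.705 over those with at least 10 CPM.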
